A study of Mus musculus with 5 samples.

Results

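The prostaglandin system of the mouse iridocorneal angle was described here through 10 genes chosen by symbol, of the 56941 gene identifiers in the count table. They were 5 synthases (Ptgs1, Ptgs2, Ptgds, Ptges and Ptgis), 4 receptors (Ptgfr, Ptger2, Ptger3 and Ptger4) and the degrading enzyme Hpgd. All 10 were found by their GENCODE symbol and all 10 had enough counts to be tested. This angle, where iris meets cornea, holds the trabecular meshwork and Schlemm's canal, through which aqueous humor leaves the eye. RNA was measured in 3 pools of DBA/2J tissue and 2 pools of DBA/2J-Gpnmb+/SjJ (Gpnmb+) tissue, taken from untreated mice of both sexes at 12 months. DBA/2J mice carry a premature stop in Gpnmb and develop pigmentary glaucoma with high eye pressure. Gpnmb+ mice have the same background, including its mutant Tyrp1 allele, with a functional Gpnmb allele. Each pool combined tissue of 3 mice per the labels, although the names of both Gpnmb+ libraries list 2 animal numbers, and remnants of iris and ciliary body stayed on the dissected ring.

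Prostaglandins are made from arachidonic acid, which phospholipases release from membranes. The cyclooxygenases Ptgs1 and Ptgs2 convert it to an unstable intermediate, and terminal synthases turn this intermediate into prostaglandin D2 (Ptgds), prostaglandin E2 (Ptges) or prostacyclin (Ptgis). Each product acts on its own G protein-coupled receptors, of which Ptgfr binds prostaglandin F2α and the EP receptors Ptger2, Ptger3 and Ptger4 bind prostaglandin E2. Hpgd oxidizes the products and ends their action. In the eye, analogs of prostaglandin F2α that activate the Ptgfr receptor are used to lower pressure, and EP2 receptor agonists serve the same purpose.

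The libraries held 43900661 to 49837758 counts on genes. Gpnmb, the check of the genotype labels, was at 47.2 ± 4.35 CPM (CPM, counts divided by the TMM-scaled library size, SD, n = 3) in DBA/2J and 2408 ± 209 CPM (SD, n = 2) in Gpnmb+. The trabecular meshwork markers Myoc (7106 to 26147 counts) and Angptl7 (3055 to 9242 counts) were abundant in every pool. Sex-linked RNA was uneven across the genotypes. The Y-linked Ddx3y had pool counts of 3608, 4168 and 1567 (DBA/2J) beside 0 and 4 (Gpnmb+), while Xist, transcribed from the inactive X chromosome, had 596, 0 and 2417 against 7843 and 9152. Y-linked RNA was thus almost absent from Gpnmb+ pools described as holding both sexes, and sex and genotype cannot be told apart in any difference given below. Markers of nonpigmented ciliary epithelium also moved with genotype: all 5 of those matched were higher in DBA/2J, 2 of them called, at a summed 315 to 398 CPM against 110 to 169 CPM. All 5 skeletal muscle markers were also higher, with none called, at 128 to 324 CPM against 86.5 to 125 CPM. The meningeal-type fibroblast markers were divided, 2 higher and 3 lower with none called, but their sum was higher in DBA/2J without overlap (1743 to 2207 CPM against 1472 to 1480 CPM). All 5 photoreceptor markers had log2 fold changes below 0 with none called, and their sums overlapped (549.6 to 813 CPM against 331 to 1802 CPM). The 4 lens markers tested were all above 0 with none called, at 13.4 to 19.9 CPM against 13.5 to 15.1 CPM. Pigment cell markers were divided, 2 higher and 4 lower with 1 called lower, at 3381 to 4468 CPM against 3627 to 4238 CPM. Corneal epithelium markers were 2 higher and 3 lower with none called, at 3084 to 5811 CPM against 4469 to 6912 CPM. The part of these cell types in the results was not tested.

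The promoters of the 2 cyclooxygenases and of Ptgfr are shown here. Results below turn on Ptgs1 beside Ptgs2, which was high in 1 DBA/2J pool, and on the receptor of the pressure-lowering drugs. Each window runs from 250 bases before to 50 bases after the RefSeq start (table build GRCm38.p6) and was placed in GRCm39 by its single exact match. The RefSeq starts lie 588 bases (Ptgs2) and 102 bases (Ptgfr) inside the GENCODE genes. Capitals mark the motifs searched on both strands.
Ptgs1 (chr2:36120188-36120487, plus strand): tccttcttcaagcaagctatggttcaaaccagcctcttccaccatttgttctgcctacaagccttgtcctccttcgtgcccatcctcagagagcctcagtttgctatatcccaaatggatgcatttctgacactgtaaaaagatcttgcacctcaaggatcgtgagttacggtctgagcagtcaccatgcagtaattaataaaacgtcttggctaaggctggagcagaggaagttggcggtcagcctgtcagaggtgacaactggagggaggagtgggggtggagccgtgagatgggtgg
Ptgs2 (chr1:149975532-149975831, plus strand): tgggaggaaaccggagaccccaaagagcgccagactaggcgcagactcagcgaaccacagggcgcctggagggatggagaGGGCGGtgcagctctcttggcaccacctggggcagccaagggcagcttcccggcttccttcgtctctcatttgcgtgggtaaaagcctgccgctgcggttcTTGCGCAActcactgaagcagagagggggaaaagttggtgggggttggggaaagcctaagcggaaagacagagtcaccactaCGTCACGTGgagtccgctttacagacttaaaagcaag
Ptgfr (chr3:151543116-151543415, minus strand): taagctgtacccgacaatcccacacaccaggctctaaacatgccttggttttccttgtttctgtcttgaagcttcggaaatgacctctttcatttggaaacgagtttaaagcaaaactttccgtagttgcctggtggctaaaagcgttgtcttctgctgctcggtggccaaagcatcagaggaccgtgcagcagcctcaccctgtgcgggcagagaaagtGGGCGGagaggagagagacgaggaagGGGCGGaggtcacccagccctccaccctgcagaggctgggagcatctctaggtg

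The Ptgs2 window held a C/EBP site (TTGCGCAA, bases 182 to 189 of the window), which occurred in 0.183% of the 32851 promoter windows of the same length. Near its end lay a half-site of the cAMP response element (TGACG, read on the minus strand at bases 264 to 268), present in 20.8% of all windows, which overlapped an E box (CACGTG, bases 267 to 272), present in 7.15%. A GC box (GGGCGG), present in 35.7% of all windows, was found once in the Ptgs2 window and at 2 places in the Ptgfr window. None of the motifs searched was found in the Ptgs1 window. The other motifs were a TATA box (TATAAA, 13.6% of windows), the full cAMP response element (TGACGTCA, 1.79%), an AP-1 site (TGAGTCA, 5.2%), an exact NF-kB site (0.155%) and the CArG box (1.63%). Among the 9 members with a window, Ptgs2 was the one that held the C/EBP site, the E box or the cAMP half-site.

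The 10 prostaglandin genes were present at very unequal levels, with the prostaglandin D2 synthase Ptgds far above the rest of the 10. On the scale of TMM-scaled counts per kilobase of exon, scaled to depth as CPM (RPKM), Ptgds was at 54.5 to 96.0 over the 5 pools, and its range did not touch that of any other member. Ptgs1, the constitutive cyclooxygenase, followed at 9.30 to 12.9 RPKM, Ptges at 8.45 to 12.8, Ptgis at 6.30 to 12.1 and Hpgd at 5.02 to 10.4. The ranges of these 4 neighbours over all pools overlapped, so the ranges do not order them. Within each pool, Ptges lay above Ptgis and Ptgis above Hpgd on this scale. By the longest transcript, the mean of Ptgis was above that of Ptges. Ptgs2, the inducible cyclooxygenase, had a median of 2.16 RPKM but reached 21.4 in 1 pool. Of the receptors, Ptgfr was the most abundant at 4.13 to 7.31 RPKM, above Ptger4 (1.87 to 2.46), Ptger3 (1.14 to 2.28) and Ptger2 (0.286 to 0.668). By this exon length, the ranges of Ptgfr and Ptger4 did not overlap, those of Ptger4 and Ptger3 did, and Ptger2 lay below all others.

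**Figure D1:**
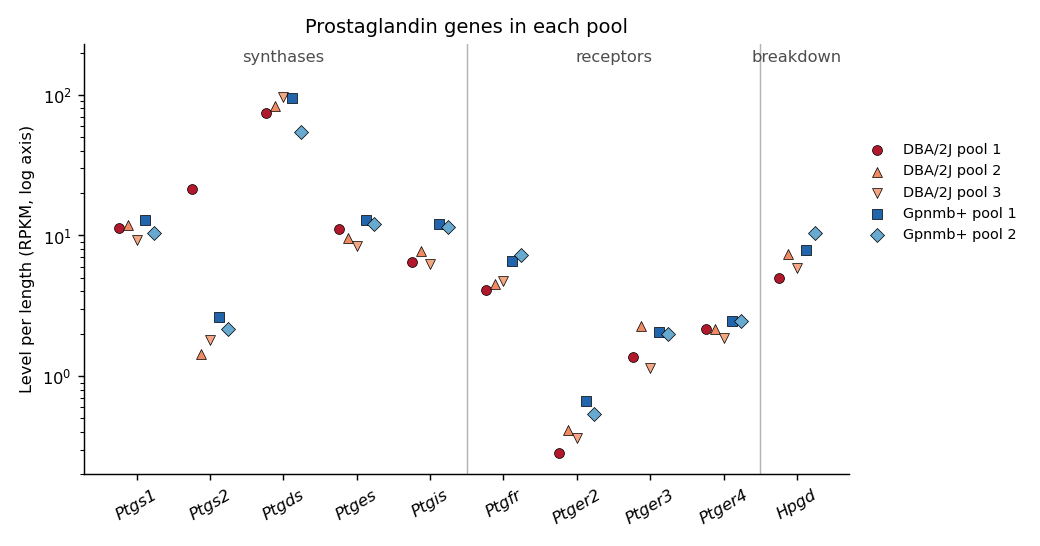
Level per length (RPKM, log axis) of the 10 prostaglandin genes in the 3 DBA/2J and 2 Gpnmb+ pools, 1 point per pool. Ptgds lay at 54.5 to 96.0 RPKM, and Ptgs2 lay between 1.44 and 2.65 in 4 pools and at 21.4 in DBA/2J pool 1.

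The comparison of DBA/2J with Gpnmb+ tissue asks which genes differ in an angle that develops glaucoma. Across all 19713 genes tested with edgeR's quasi-likelihood test, 157 (0.796%) passed (adjusted p by Benjamini-Hochberg up to 0.05 and fold change from 1.5 upward), 0.502% being higher and 0.294% lower in DBA/2J. None of the 10 prostaglandin genes was among them. With p up to 0.05 before adjustment in the edgeR fit, 5 of the 10 were lower in DBA/2J and 0 higher, against 7.6% of all tested genes lower and 8.31% higher. With the fold change minimum added, 3 were left (Ptgis, Ptgfr and Ptger2), against 4.48% of all tested genes lower and 8.67% in either direction. The same 3 passed the fold change minimum alone, as did 9.97% of all genes on the lower side. With DESeq2, the tool of the study, 2 of the 10 were called lower (Ptgis and Ptgfr), both in its Wald test and with ashr moderation. So were 1.94% of all genes in the Wald test and 1.46% with ashr moderation (3.72% in either direction). In limma-voom, Ptgis was called lower, as were 0.355% of all genes. The log2 fold change was below 0 for 8 members, as for 52.6% of all genes, and its median was -0.35 over the members and -0.017 over all genes tested. All 3 DBA/2J pools lay below both Gpnmb+ pools for 6 members (Ptges, Ptgis, Ptgfr, Ptger2, Ptger4 and Hpgd), an arrangement shown by 17.2% of all tested genes, with 34.5% separated in either direction. In bulk tissue, fewer cells of a type and less RNA per cell cannot be told apart.

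**Figure D2:**
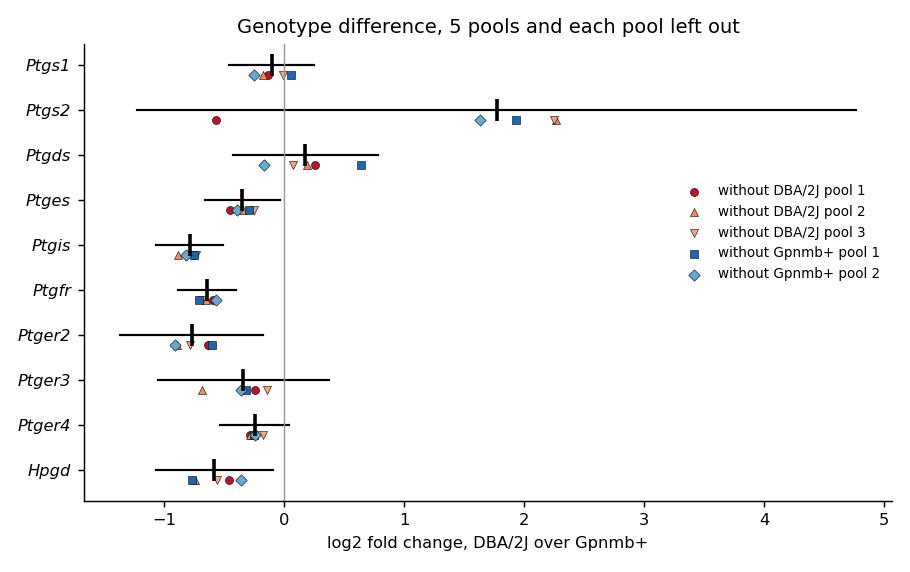
Log2 fold change (DBA/2J over Gpnmb+) of the 10 genes from edgeR. Black ticks and lines are the estimate and 95% confidence interval from all 5 pools, and colored points are the estimates with 1 pool left out. Ptgis and Ptgfr stayed between -0.89 and -0.57 in all 5 leave-one-out fits, whereas Ptgs2 moved from 1.77 to -0.57 without DBA/2J pool 1.

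Ptgis, which makes prostacyclin, a relaxant of vessel walls, had the lowest p of the synthases. It had pool counts of 1036, 1187 and 1006 (DBA/2J) beside 2200 and 2023 (Gpnmb+). The DBA/2J pools were all low and close together, and the groups did not overlap. Its level was 24.5 ± 2.75 CPM (SD, n = 3) in DBA/2J and 42.4 ± 1.42 CPM (SD, n = 2) in Gpnmb+, which is 42.2% lower in DBA/2J. The log2 fold change was -0.79 (standard error, SE, 0.12, 95% confidence interval -1.07 to -0.51), with an adjusted p of 0.0513 in edgeR's quasi-likelihood test, just above the threshold. DESeq2's Wald test gave an adjusted p of 3.34e-06 for the same gene and limma-voom gave 0.0472. With any 1 pool left out, the log2 fold change stayed between -0.89 and -0.73 and the edgeR adjusted p between 0.0973 and 0.182. Ptgir, the prostacyclin receptor, was at pool counts of 309, 347 and 393 (DBA/2J) beside 488 and 423 (Gpnmb+), with overlapping CPM and a log2 fold change of -0.20.

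Ptgfr, the receptor for prostaglandin F2α and the target of the pressure-lowering analogs, was lower in DBA/2J by a similar margin. It had pool counts of 1243, 1312 and 1424 (DBA/2J) beside 2274 and 2423 (Gpnmb+). The lowest Gpnmb+ pool, at 44.8 CPM, lay above the highest DBA/2J pool, at 31.9 CPM. Means were 30.2 ± 2.01 CPM (SD, n = 3) and 47.2 ± 3.34 CPM (SD, n = 2), so DBA/2J was 36.1% lower. The log2 fold change was -0.65 (SE 0.10, 95% confidence interval -0.88 to -0.41; edgeR adjusted p = 0.0532), and DESeq2's Wald test gave an adjusted p of 1.71e-05. Leaving out 1 pool kept it between -0.71 and -0.57, with an edgeR adjusted p between 0.0793 and 0.225. Ptgfrn, a membrane protein that binds the Ptgfr receptor and inhibits its ligand binding, was steady at 12163 to 13494 counts in all pools, with a log2 fold change of 0.089 (95% confidence interval -0.11 to 0.29).

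Markers of contractile, meshwork and vessel cells are given beside Ptgis and Ptgfr. Myh11, the myosin of smooth muscle, had pool counts of 6157, 8163 and 6576 (DBA/2J) beside 12874 and 8575 (Gpnmb+). Over the smooth muscle list 5 of 6 markers were lower in DBA/2J with none called, and the summed level was 539 to 634 CPM against 589.5 to 777 CPM. In the trabecular meshwork list 4 of 6 were lower with none called, Myoc by a log2 fold change of -1.06, while the summed level was higher in DBA/2J (7978 to 8435 CPM against 6421 to 7265 CPM). Endothelial markers were divided, 3 higher and 3 lower, at 312 to 428 CPM against 329 to 372 CPM. All 5 Schwann cell markers were lower in DBA/2J, 1 of them called, at a summed 148 to 194 CPM against 233 to 271 CPM. The part of these cell types in the lower Ptgis and Ptgfr was not tested.

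The EP receptors for prostaglandin E2 all had log2 fold changes below 0, and none passed the adjusted threshold. Ptger2, which raises cAMP, was sparse, with pool counts of 66, 92 and 84 (DBA/2J) beside 176 and 137 (Gpnmb+). The groups did not overlap, and the log2 fold change was -0.77 (SE 0.24, 95% confidence interval -1.37 to -0.17; edgeR adjusted p = 0.22). Ptger4, which also raises cAMP, had 640, 618 and 554 counts against 826 and 800, a smaller gap with a log2 fold change of -0.25 (SE 0.12 and edgeR adjusted p = 0.376). Ptger4 overlaps Ttc33 on the opposite strand, which had 1502 to 1729 counts, and the strand used in counting is not given in the sources used here. Ptger3, which lowers cAMP, had pool counts of 386, 617 and 321 (DBA/2J) beside 657 and 617 (Gpnmb+). DBA/2J pool 2 lay above both Gpnmb+ pools at 14.4 CPM, so the groups overlapped, and the log2 fold change was -0.34 (SE 0.29 and edgeR adjusted p = 0.623). Ptger1, the EP receptor that signals through calcium, was at 8.37 to 10.2 CPM in DBA/2J and 9.61 to 9.62 CPM in Gpnmb+, with a log2 fold change of -0.099.

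Summed over the 4 receptors, the level per length was 7.95, 9.37 and 8.08 RPKM in DBA/2J pools 1 to 3 and 11.8 and 12.3 RPKM in Gpnmb+ pools 1 and 2. Every DBA/2J pool was below both Gpnmb+ pools. The exact two-sided permutation test gave p = 0.2, the smallest value that 3 pools against 2 can give. Ptgfr made up 48.1% to 58.3% of the sum in DBA/2J and 56.1% to 59.4% in Gpnmb+, and these ranges overlapped. Ptger4 took 23.1% to 27.2% in DBA/2J and at most 20.8% in Gpnmb+. Ptgfr was the largest share in all 5 pools.

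**Figure D3:**
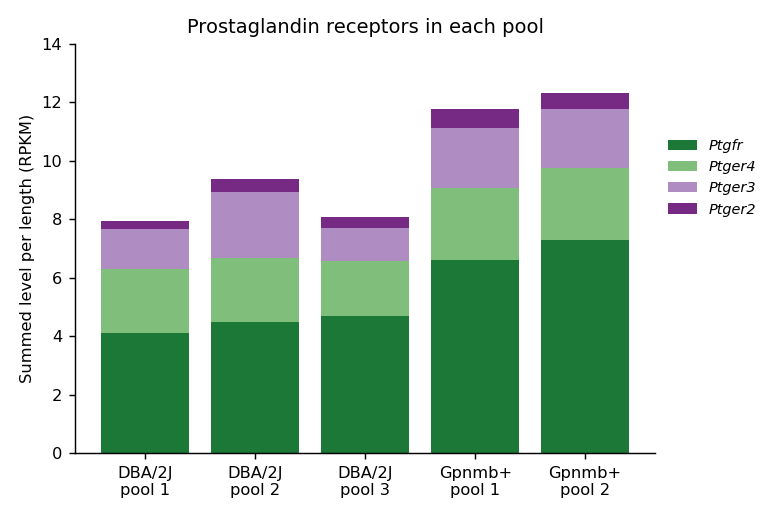
Summed level per length (RPKM) of Ptgfr, Ptger4, Ptger3 and Ptger2 in each pool, as stacked bars starting at 0. The 3 DBA/2J pools reached 7.95 to 9.37 RPKM and the 2 Gpnmb+ pools 11.8 and 12.3 RPKM, and Ptgfr was the largest part of every bar.

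Ptgs1 did not separate the genotypes. It had pool counts of 1950, 1981 and 1613 (DBA/2J) beside 2540 and 1983 (Gpnmb+), at 42.1 ± 5.23 CPM (SD, n = 3) and 45.3 ± 6.73 CPM (SD, n = 2). Its log2 fold change was -0.11 (95% confidence interval -0.46 to 0.25; edgeR adjusted p = 0.769), and the estimate was 0.055 without Gpnmb+ pool 1.

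Ptgs2, the cyclooxygenase that stimuli switch on, was set apart by a single pool. It had 4870 counts in DBA/2J pool 1, but 316 and 412 in DBA/2J pools 2 and 3 and 690 and 542 in Gpnmb+ pools 1 and 2. DBA/2J pool 1, at 109.5 CPM, was 8.05 times the next highest pool, and the other DBA/2J pools (7.36 and 9.24 CPM) were below both Gpnmb+ pools (13.6 and 11.1 CPM). Ratios of at least 5 between DBA/2J pool 1 and every other pool were found for 46 of the 19713 genes tested (0.233%). The log2 fold change was 1.77 with a 95% confidence interval from -1.23 to 4.76 (edgeR adjusted p = 0.54). Without DBA/2J pool 1 it reversed to -0.57 (edgeR adjusted p = 0.348). DESeq2 with ashr moderation shrank it to 0.061. As a share of the summed level per length of the 2 cyclooxygenases, Ptgs2 was 65.5% in DBA/2J pool 1, 10.8% and 16.2% in DBA/2J pools 2 and 3, and 17.1% and 17.2% in Gpnmb+ pools 1 and 2. The exact two-sided permutation test of these shares gave p = 1, with 0.2 the smallest possible.

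The high Ptgs2 of DBA/2J pool 1 came with high early response genes, the transcription factors and phosphatases that cells induce within minutes of a stimulus. All 12 genes of an early response list were highest in that pool. Their CPM there was 2.01 to 55.4 times the median of the 5 pools, with a median ratio of 4.76, and Ptgs2 was at 9.89 times its median. Fos had 7611 counts in DBA/2J pool 1, against 862 and 1384 in DBA/2J pools 2 and 3 and 689 and 979 in Gpnmb+. Egr1 had 24216 counts there, against 3218 and 3350 in DBA/2J and 1292 and 1907 in Gpnmb+. Nr4a1, an orphan nuclear receptor, had the highest ratio of the list. None of the 12 was called between genotypes by edgeR. Without DBA/2J pool 1 the log2 fold change was above 0 for 11 of them (all but Dusp1). In that fit it was below 0 for 53.7% of all genes. It was smaller than with all pools for all 12, which follows from that pool being the highest for each. Of the 9 early response genes with a promoter window, 8 held the GC box (35.7% of all windows), 7 the cAMP half-site (20.8%), 2 the E box (7.15%) and none the C/EBP site, all motifs that the Ptgs2 window holds. Of the motifs that the Ptgs2 window lacks, 2 held the TATA box (13.6%), 1 the full cAMP response element (1.79%) and 1 the CArG box (1.63%). None held the AP-1 site (5.2%) or the exact NF-kB site (0.155%). The part of any motif in the shared peak was not tested.

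**Figure D4:**
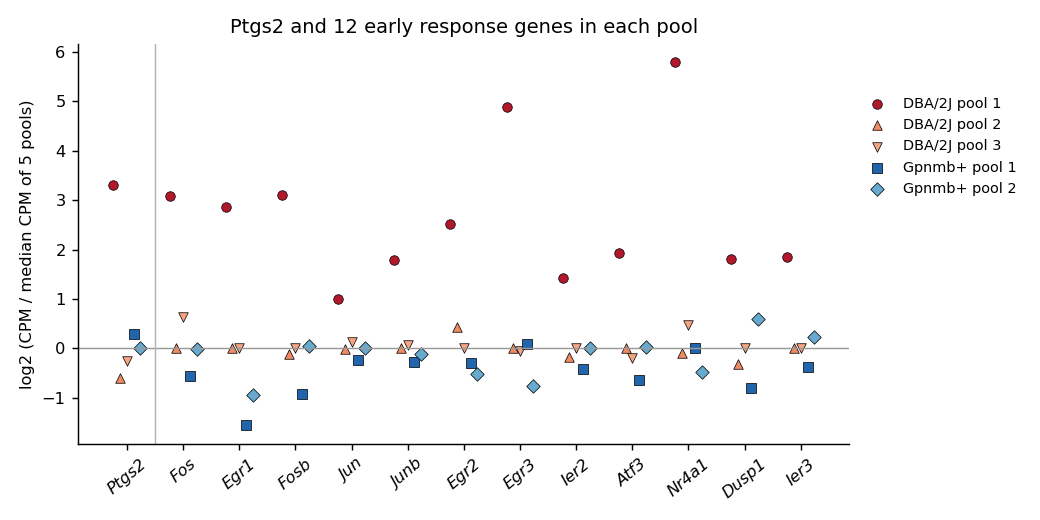
Log2 ratio of the CPM in each pool to the median of the 5 pools, for Ptgs2 (left of the line) and 12 early response genes. DBA/2J pool 1 was the highest pool for every gene, at ratios of 2.01 to 55.4 for the early response genes and 9.89 for Ptgs2.

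Blood cell markers were also uneven in that pool. The neutrophil list summed to 187 CPM in DBA/2J pool 1, to 16.2 and 21.0 CPM in DBA/2J pools 2 and 3, and to 64.2 and 8.38 CPM in Gpnmb+ pools 1 and 2. The platelet list summed to 45.7, 10.5 and 11.2 CPM in DBA/2J and 19.3 and 11.2 CPM in Gpnmb+, led by Ppbp with 1376 counts in DBA/2J pool 1, while Gp1bb was at 0 in every pool. Gpnmb+ pool 1, second highest in both lists, was also second highest for Ptgs2. In the early response list, however, Gpnmb+ pool 1 had the lowest sum, 319 CPM against 467 CPM in Gpnmb+ pool 2. That list summed to 2297 CPM in DBA/2J pool 1 and to 449 and 489 CPM in DBA/2J pools 2 and 3. The part of blood cells or of handling in the Ptgs2 value was not tested. Pla2g4a, the phospholipase that supplies arachidonic acid to the cyclooxygenases and that lies 138 kb from Ptgs2 on chromosome 1, did not share the peak, with 3585 counts in DBA/2J pool 1 and 2946 to 4376 in the others.

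Ptgds, the carrier and synthase of prostaglandin D2, was abundant and varied within genotypes. It had pool counts of 24773, 26524 and 31934 (DBA/2J) beside 36091 and 19868 (Gpnmb+). Gpnmb+ pool 2 lay below every DBA/2J pool in CPM, Gpnmb+ pool 1 lay above DBA/2J pools 1 and 2, and the Gpnmb+ pools differed 1.75-fold from each other. The log2 fold change was 0.17 (SE 0.25 and edgeR adjusted p = 0.783), 0.64 without Gpnmb+ pool 1 and -0.17 without Gpnmb+ pool 2. Hpgds, the prostaglandin D2 synthase of blood-derived cells such as mast cells, had pool counts of 2526, 2776 and 2031 (DBA/2J) beside 4030 and 4092 (Gpnmb+), and the groups did not overlap. Its log2 fold change was -0.55 (SE 0.15 and edgeR adjusted p = 0.165). The mast cell markers overlapped between genotypes, at a summed 247 to 259 CPM in DBA/2J and 224 to 286 CPM in Gpnmb+. Macrophage markers, 5 of 6 higher in DBA/2J with none called, also overlapped in sum (2870 to 3994 CPM against 2798 to 3681 CPM). The part of these cells in the Hpgds difference was not tested.

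Ptges, the inducible prostaglandin E2 synthase, and Hpgd, which inactivates that product, were each lower in all DBA/2J pools. Ptges had pool counts of 2170, 1828 and 1660 (DBA/2J) beside 2866 and 2582 (Gpnmb+), or 42.9 ± 5.80 CPM (SD, n = 3) against 54.6 ± 2.62 CPM (SD, n = 2). Its log2 fold change was -0.35 (SE 0.13 and edgeR adjusted p = 0.269). Hpgd had pool counts of 689, 979 and 813 (DBA/2J) beside 1231 and 1578 (Gpnmb+), or 18.8 ± 3.69 CPM (SD, n = 3) against 28.3 ± 5.66 CPM (SD, n = 2), with a log2 fold change of -0.58 (SE 0.20 and edgeR adjusted p = 0.249). The highest DBA/2J pool of Hpgd, at 22.8 CPM, came close to the lowest Gpnmb+ pool, at 24.3 CPM. The constitutive prostaglandin E2 synthases Ptges2 (log2 fold change 0.033) and Ptges3 (0.043) overlapped between genotypes, with 95% confidence intervals of -0.28 to 0.35 and -0.25 to 0.34.

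The wider pathway was read from 28 further genes for arachidonate release, synthesis, reception, transport and breakdown, of which 25 were tested. None was called by edgeR. With p up to 0.05 before adjustment there were 3 lower (Pla2g4c, Pla2g2e and Hpgds) and 1 higher (Pla2g5). These 4 of 25 were 16% of the pathway genes tested, close to the background of 15.9% of all genes at that p in either direction. DESeq2's Wald test called Pla2g2e lower and Pla2g5 higher, in a fit that called 4.7% of all genes in either direction. The median log2 fold change was -0.058. The untested genes were Pla2g4b, Pla2g10 and Ptgdr2, with at most 9 counts in any pool.

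Among the release enzymes, Pla2g5, a secreted phospholipase, was the most abundant at 34.3 to 63.9 RPKM. It had pool counts of 8378, 9256 and 11226 (DBA/2J) beside 7422 and 6607 (Gpnmb+), and every DBA/2J pool was above both Gpnmb+ pools in CPM. Its log2 fold change was 0.64 (SE 0.14 and edgeR adjusted p = 0.11), with an adjusted p of 0.0017 in DESeq2's Wald test. Pla2g2e, another secreted phospholipase that lies 14.3 kb from Pla2g5 on chromosome 4, had the opposite sign, with 57, 49 and 72 counts against 138 and 123 and a log2 fold change of -0.96 (SE 0.24 and edgeR adjusted p = 0.144). Pla2g4a had a log2 fold change of -0.20 (edgeR adjusted p = 0.451).

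Of the synthases outside the 10 genes, Ptges3 was the highest at a mean of 58.1 RPKM, and Akr1b1, an aldose reductase able to make prostaglandin F2α, was at a mean of 11.2 RPKM with a log2 fold change of -0.067. GENCODE lists a processed pseudogene, Ptges3-ps, so the count of Ptges3 is uncertain. Among transporters and breakdown enzymes, the reductase Ptgr1 was the most abundant, with pool counts of 4383, 7458 and 4328 (DBA/2J) beside 6640 and 10861 (Gpnmb+), and its groups overlapped (log2 fold change -0.52, SE 0.33). Ptgr3, a further reductase, had a log2 fold change of 0.0066 (SE 0.096). Slco2a1, the prostaglandin uptake carrier, was highest in DBA/2J pool 1, with 3830 counts against 1829 and 2159 in the other DBA/2J pools and 2802 and 1502 in Gpnmb+.

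**Figure D5:**
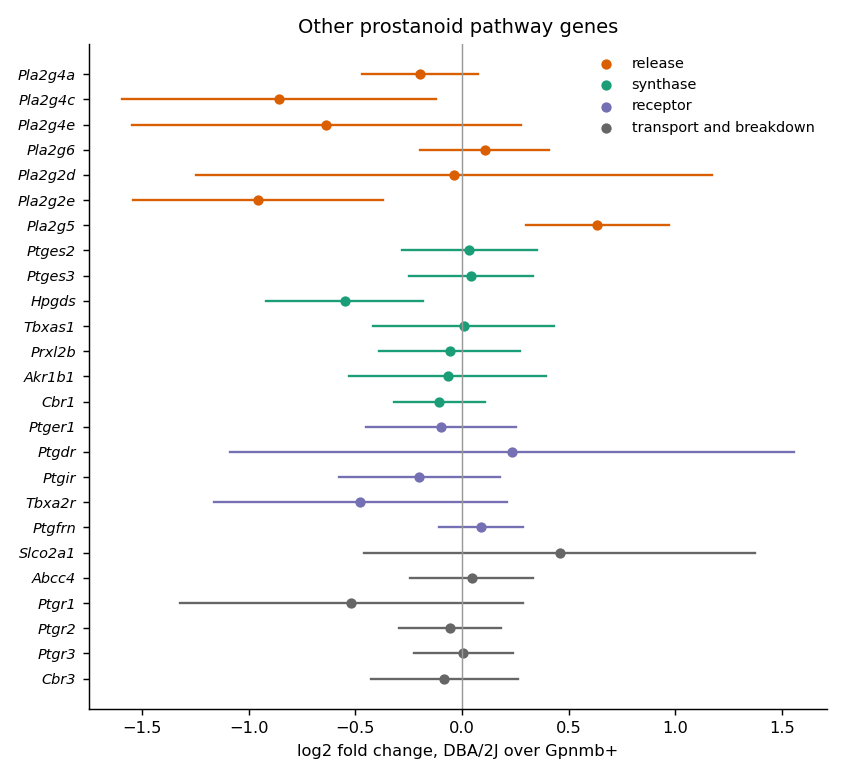
Log2 fold change (DBA/2J over Gpnmb+) with 95% confidence interval from edgeR for the 25 tested pathway genes outside the 10, colored by role. Pla2g5, at 0.64, had its interval above 0, and Pla2g4c, Pla2g2e and Hpgds had theirs below 0.

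The members lie on 6 chromosomes. Of the 10, 4 lie on chromosome 2 (Ptgds, Ptges, Ptgs1 and Ptgis) and 2 on chromosome 3, where Ptgfr (151502139 to 151543267 in GRCm39) and Ptger3 (157272492 to 157352099) are 5729 kb apart. Ptgis lies on chromosome 2 from 167033725 to 167083018, Ptgs2 on chromosome 1 from 149975194 to 149983978 and Hpgd on chromosome 8 from 56747543 to 56774082. Apart from Ttc33, the genes that overlap a member and stand in the count table had at most 2.49% of its counts.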

How the data were processed

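Per the labels and the study's methods, mRNA libraries from pooled iridocorneal angles were sequenced, and the authors used fastp for trimming and STAR for alignment (GRCm39 from Ensembl), then deposited raw counts per gene of reads with 1 genomic location. Program versions and the strand setting are not given in the sources used here. All 5 columns were used, and no libraries were identical.

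Names, positions and exon lengths came from GENCODE M39 (GRCm39), which held 56323 of the 56941 identifiers. In R 4.3.3, edgeR 4.0.16 compared genotypes with its quasi-likelihood test after TMM scaling, on genes reaching 10 counts in any pool, without covariates. Standard errors are the log2 fold change divided by the root of F. RPKM used the union of exons. DESeq2 1.42.0 and ashr 2.2.63, programs the study also used, and limma 3.58.1 served as alternatives. Simulated data with 200 genes changed 3-fold among 19081 tested gave 100% recovery and 5 false calls. The changed genes were well counted, and the simulated spread between pools was below the 20.7% common coefficient of variation of these data. Recovery of fold changes smaller than 3 was not simulated. Promoter windows came from RefSeq. Figures used matplotlib 3.10.9.

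The members, the 28 further pathway genes and the 16 marker lists were chosen with earlier results of these data known. All members are named. Pathway genes named by rule were those called and the 2 highest per length in each role (Ptgfrn and Ptgir for receptors), and those with an unadjusted p of at most 0.05, Ptger1, Ptges2, Slco2a1 and the untested genes were named after their values were seen. The list name Akr1b3 is the same gene as Akr1b1, and Cpamd8 had no match. By the mouse totals in the study's methods, no mouse was shared between pools. The p-values of the edgeR, DESeq2 and limma-voom fits set the genotype difference against the spread between these pools, moderated across genes. Each pool combined several mice, so the spread between single mice was not measured. Counts limit precision by counting error only.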

Additional observations from a re-analysis of the deposited data

How the results depend on the processing

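The number of prostaglandin genes called, 0 in edgeR, was 2 with DESeq2's Wald test, 2 with ashr moderation, 2 without the count minimum and 1 with limma-voom, and 3 at an unadjusted p-value with the fold change minimum. It stayed 0 with DESeq2's size factors in edgeR, filterByExpr, no fold change minimum and each pool left out. The further pathway genes, 0 in edgeR, gave 2 calls with DESeq2's Wald test and 3 with unadjusted p-values. The 157 genes called over the whole table became 927 with DESeq2's Wald test, 734 with ashr moderation, 360 without the count minimum, 190 with limma-voom and 1710 with unadjusted p-values, and ran from 1 to 217 with a pool left out (6, 1 and 17 without DBA/2J pools 1, 2 and 3, 217 and 2 without Gpnmb+ pools 1 and 2). With a Gpnmb+ pool left out, the lone pool was assumed to vary like the DBA/2J pools.

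Leave-one-out signs were followed for the members and the 2 highest pathway genes of each role. They reversed for Ptgs1 (range -0.25 to 0.055, above 0 without Gpnmb+ pool 1), Ptgs2 (-0.57 without DBA/2J pool 1, otherwise up to 2.27) and Ptgds (-0.17 without Gpnmb+ pool 2, up to 0.64). They also reversed for Ptges3 (-0.066 without DBA/2J pool 1, up to 0.10) and Akr1b1 (-0.24 to 0.13, above 0 without DBA/2J pool 3 or Gpnmb+ pool 2). The same held for Ptgr3 (-0.045 to 0.066, below 0 without DBA/2J pool 2, DBA/2J pool 3 or Gpnmb+ pool 1). Some other pathway genes reversed as well, such as Ptges2 (0.033 with all pools, -0.0091 without DBA/2J pool 1). The Ptgs2 share was 13.7 percentage points higher in DBA/2J, and ran from -3.62 without DBA/2J pool 1 to 23.7 without DBA/2J pool 2. Using the longest transcript, 2 members, Ptges and Ptgis, exchanged places in the order of levels. By that length the mean of Ptgfr was 5.58 RPKM and that of Ptger4 3.92, beside 5.45 and 2.22 by exon union. The gap between these 2 receptors and the receptor shares thus depend on the length used.

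With the pool number as a replicate block, 0 prostaglandin genes, 0 pathway genes and 220 genes overall were called, and Akr1b1 (0.086) and Ptgr3 (-0.037) reversed. Deviations of same-numbered pools correlated at 0.279 and 0.254 across genes in the 2 possible pairs. The deviations of the 2 Gpnmb+ pools mirror each other, so the opposite pairs gave -0.279 and -0.254 by construction. These values cannot decide on pairing. Nothing in the labels ties the numbers to a batch, so the pools were treated as unpaired. The causes of these changes were not tested. Depth limits Ptger2 most, at 66 to 176 counts per pool.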
